A study of Mus musculus with 18 samples.

Results

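The Period genes Per1, Per2 and Per3 encode the PERIOD proteins of the mouse circadian clock. Binding of BMAL1 at these genes was read from peak lists of liver, kidney and heart, made by chromatin immunoprecipitation and sequencing (ChIP-seq). A peak counted as a Period peak when its centre lay inside a Period gene or within 10 kb of either end of the gene. This rule found 20 of the 11366 peaks in the 3 lists, 8 of 4813 in liver, 7 of 4034 in kidney and 5 of 2519 in heart. Overlapping peaks were merged, and the 20 peaks formed 9 of the 9005 sites. All animals were wild-type C57BL/6 mice, 3 to 6 months old, with free access to food and water under a cycle of 12 h of light followed by 12 h of darkness, and tissues were taken at ZT06, 6 h after lights on. Each tissue had 3 ChIP and 3 input libraries from 3 mice, the same animals for all tissues. The ChIP used an affinity-purified chicken antibody to the N-terminal domain of mouse BMAL1. Each list was made by the authors from all libraries of a tissue together, so a site has 1 value per tissue, with no spread between animals and no test, and the read depth is unknown.

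BMAL1 and its partner CLOCK form a heterodimer that binds the E-box, the hexamer CACGTG, and activates genes of the clock. Among its targets are the Period and Cryptochrome genes, whose proteins form complexes that enter the nucleus and inhibit BMAL1 and CLOCK, which closes a negative feedback loop. In liver, BMAL1 is known to bind DNA most in the light phase. Per1 and Per2 carry the main PERIOD function in this loop, whereas Per3 is less needed for behavioural rhythm.

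All 3 Period genes had BMAL1 peaks in all 3 tissues. Over all protein-coding genes, 18.1% had a liver peak in the same window, 18.0% a kidney peak and 11.5% a heart peak, and 4.35% (953 of 21887) had peaks of all tissues. Of the 9 Period sites, 5 were found in all 3 tissues, 1 in liver and kidney, 2 in liver only and 1 in kidney only. Over all merged regions 5.76% were found in all tissues. That share counts regions of every score, weak ones included, and regions of like score were not compared. Each Period gene held at least 1 site common to all tissues, as did 3.09% of protein-coding genes. Per1 and Per2 held 2 such sites each, a number reached by 0.174% of protein-coding genes (38 of 21887). These shares of genes count genes of every length, and a longer gene has a wider window. For the heart input libraries GEO gives kidney as the source, whereas titles and tissue say heart. Without the heart list the Period peaks numbered 15, and 6 sites were common to liver and kidney. The lists hold no expression values, so the tissue labels were not checked against marker genes.

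**Figure D1:**
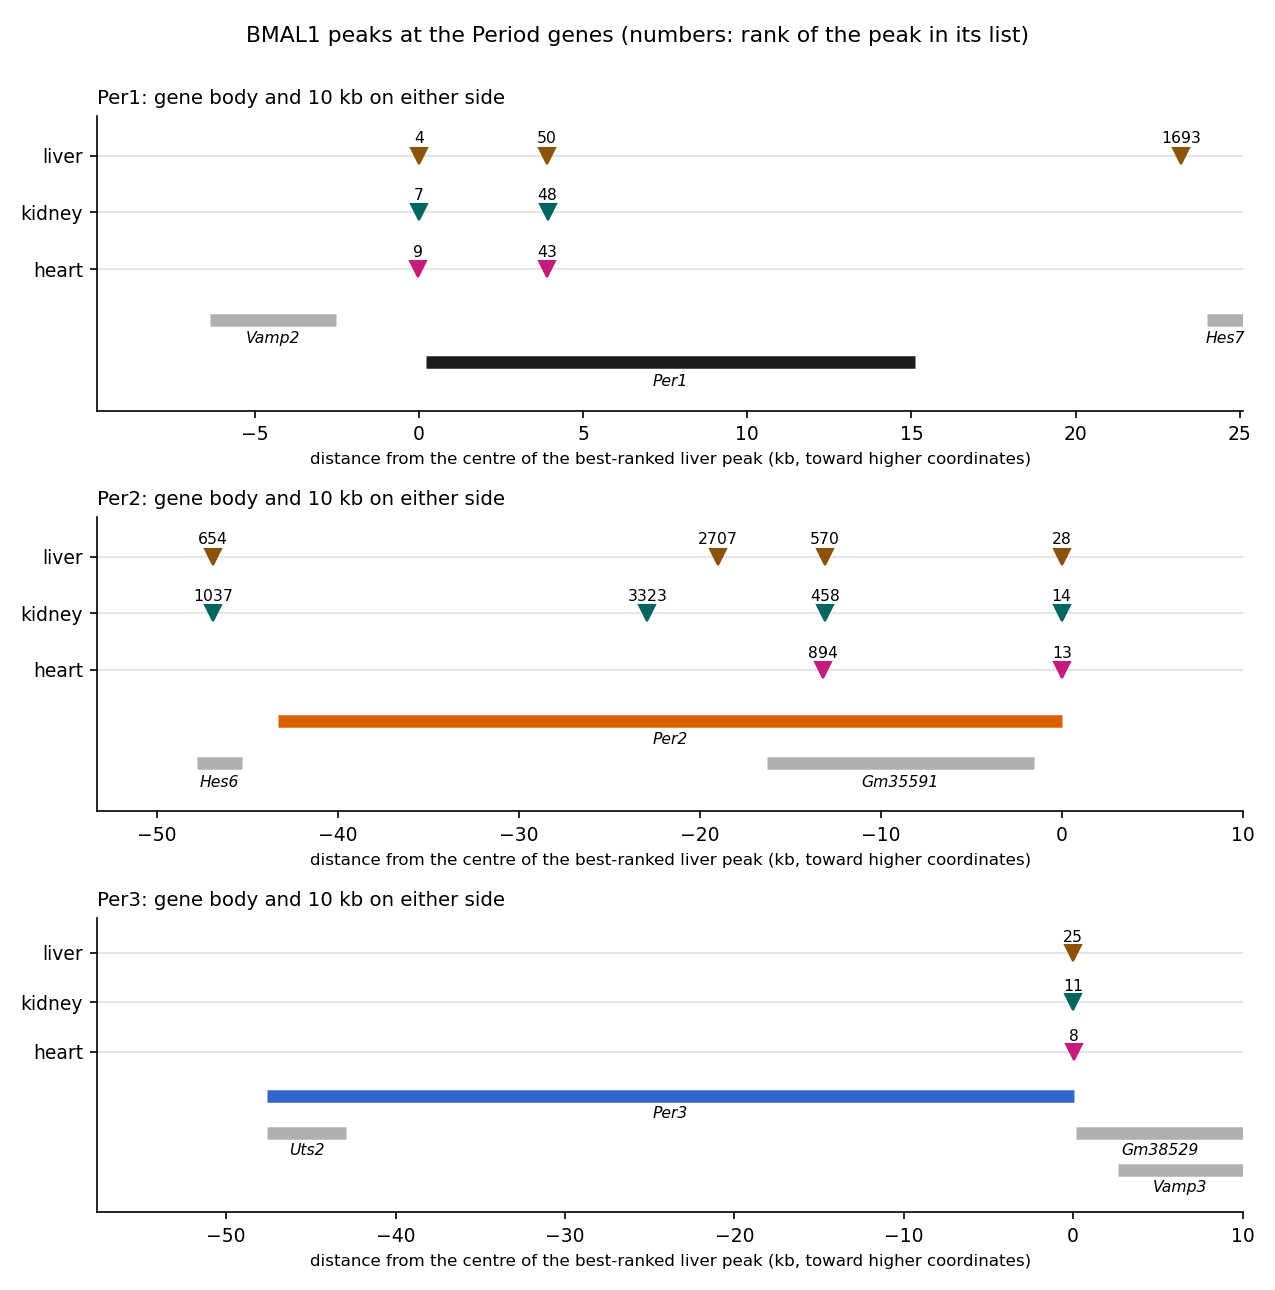
Position of BMAL1 peaks at the Period genes, in kb from the centre of the best-ranked liver peak of each gene toward higher coordinates. Triangles are peaks of liver, kidney and heart with their rank in the list above them, and bars are annotated genes. The best-ranked sites, with ranks from 4 to 28, lie at 1 end of each gene in all tissues, and the weaker sites of Per2 reach ranks as low as 3323.

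The promoter table from RefSeq (GRCm38.p6) held windows of Per1 and Per3 on which the peaks bear. The 250 bases before the listed start site are shown for both, because a site common to all tissues lay over each of them. Motifs were read at these 2 sites only, and the sequences of the other 7 Period sites, the strongest Per1 site and all Per2 sites among them, were not analysed here. Capitals mark every match to the motifs searched in these bases. In Per1 these are the E-box CACGTG and, on the reverse strand, the nuclear receptor half-site AGGTCA. In Per3 they are 2 copies of TTATGTAA, a D-box sequence of the kind bound by DBP, TEF, HLF and NFIL3. The Per1 bases lie at chr11:69098699-69098948 on the forward strand and the Per3 bases at chr4:151044666-151044915 on the reverse strand, both written 5′ to 3′.
Per1: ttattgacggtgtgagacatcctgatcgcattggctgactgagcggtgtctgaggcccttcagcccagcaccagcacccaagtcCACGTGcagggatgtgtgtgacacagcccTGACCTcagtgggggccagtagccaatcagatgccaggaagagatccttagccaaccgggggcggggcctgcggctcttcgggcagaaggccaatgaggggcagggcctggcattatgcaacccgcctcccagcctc
Per3: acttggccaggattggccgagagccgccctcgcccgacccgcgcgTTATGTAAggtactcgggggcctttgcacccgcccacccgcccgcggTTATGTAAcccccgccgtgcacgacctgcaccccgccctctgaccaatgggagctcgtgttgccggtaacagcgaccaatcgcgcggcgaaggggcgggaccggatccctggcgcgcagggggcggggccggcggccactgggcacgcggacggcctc

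Per1 lies on chromosome 11 (69095108 to 69109965, 14.9 kb). Its strongest site lay just outside the gene, with the centre 210 to 236 bp from the lower end. Per1 is read on the forward strand, so this is the upstream end of the gene. No start site was listed there. The first listed start site was 3.84 kb inside the gene and 4.05 to 4.08 kb from the centre of the strongest site. The peak spanned 69094772 to 69095013 in the liver list, 69094805 to 69094992 in kidney and 69094774 to 69094971 in heart. Its score, a whole number that the authors gave each peak and that orders peaks within a list only, was 318, 254 and 262 in liver, kidney and heart. These scores put it at rank 4 of the liver list, rank 7 of the kidney list and rank 9 of the heart list, within the upper 0.0831%, 0.174% and 0.357%. The gene next to this site on the other side, Vamp2, encodes a vesicle SNARE protein, and its nearer end was 2.49 to 2.52 kb away.

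The next site of Per1 was inside the gene, 3.91 kb farther on, and overlapped the promoter window of the first listed start site. It spanned 69098672 to 69098913 in liver, 69098716 to 69098903 in kidney and 69098691 to 69098888 in heart. The scores were 196, 162 and 158, at ranks 50, 48 and 43 of the lists. The peak centres lay at -157, -140 and -160 bp from the start site in the 3 tissues. Both of these Per1 sites were thus high in every list, and they kept the same order in each.

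A last site in the Per1 window was present in liver only. It lay 8.13 kb past the higher end of Per1 (69117978 to 69118219), scored 51 and held rank 1693 of 4813. Its centre was 808 bp from the lower end of Hes7, a bHLH repressor gene of the segmentation clock, and 696 bp from a tRNA gene, so it lay nearer to both than to Per1. This peak was also the one nearest to the edge of the 10 kb window on the inside. The first peak outside any of the 3 windows was a liver peak 24.1 kb below Per1 with a score of 29 at rank 3282, followed by a heart peak 38.5 kb above Per3 with a score of 17 at rank 1975.

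Per2 lies on chromosome 1 (91415977 to 91459351, 43.4 kb) and had 5 sites, the most of the Period genes. For comparison, 0.461% of protein-coding genes of every length had 5 or more sites in the same window. A longer gene such as Per2 has a wider window, and genes of like length were not compared. Its strongest site lay at the higher end of the gene, which is the start of Per2, a gene known to be transcribed toward lower coordinates. The peak spanned 91459203 to 91459444 in liver, 91459227 to 91459414 in kidney and 91459225 to 91459422 in heart, with the centre 28, 31 and 28 bp inside that end. Its scores were 228, 232 and 241. The ranks were 28, 14 and 13, and in each list this was the highest score on chromosome 1. The 3 centres fell within 3 bp of each other, against a median range of 27 bp over the 519 regions common to all tissues.

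The other common site of Per2 was 13.1 kb farther into the gene. It spanned 91446077 to 91446318 in liver, 91446111 to 91446298 in kidney and 91446053 to 91446250 in heart, and its centre also lay inside Gm35591, an annotated lncRNA gene. The scores were 91, 69 and 32. The site held rank 570 in liver, 458 in kidney and 894 in heart, within the upper 11.8%, 11.4% and 35.5% of the lists. Its centres ranged over 53 bp, the widest range of the Period sites.

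The remaining Per2 sites were weaker and not found in heart. Inside Hes6, a neighbouring gene of the HES family of bHLH factors, a site scored 86 in liver (91412267 to 91412508, rank 654) and 44 in kidney (91412307 to 91412494, rank 1037). Its centre was 3.58 to 3.59 kb from the lower end of Per2 and 904 to 917 bp from the nearer end of Hes6. Inside Per2, a liver peak scored 35 (91440220 to 91440461, rank 2707 of 4813). A kidney peak 3.89 kb away scored 17 (91436356 to 91436543, rank 3323 of 4034). The kidney peak lay near the floor of its list, where the lowest score was 14, and the liver peak lay near the middle of its list, where the median was 40 and the lowest score 17. A site just under a list's threshold in another tissue cannot be told from one without binding there.

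Per3 lies on chromosome 4 (150997018 to 151044707, 47.7 kb) and had 1 site, at its start. The peak spanned 151044548 to 151044789 in liver, 151044589 to 151044776 in kidney and 151044601 to 151044798 in heart. Its score was 236, 244 and 273, at rank 25, 11 and 8. In every list it was the highest score on chromosome 4. The peak centre lay at -3, -17 and -34 bp from the listed start site in liver, kidney and heart. The start of Gm38529, a predicted protein-coding gene read in the opposite direction, was 154 to 185 bp away.

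**Figure D2:**
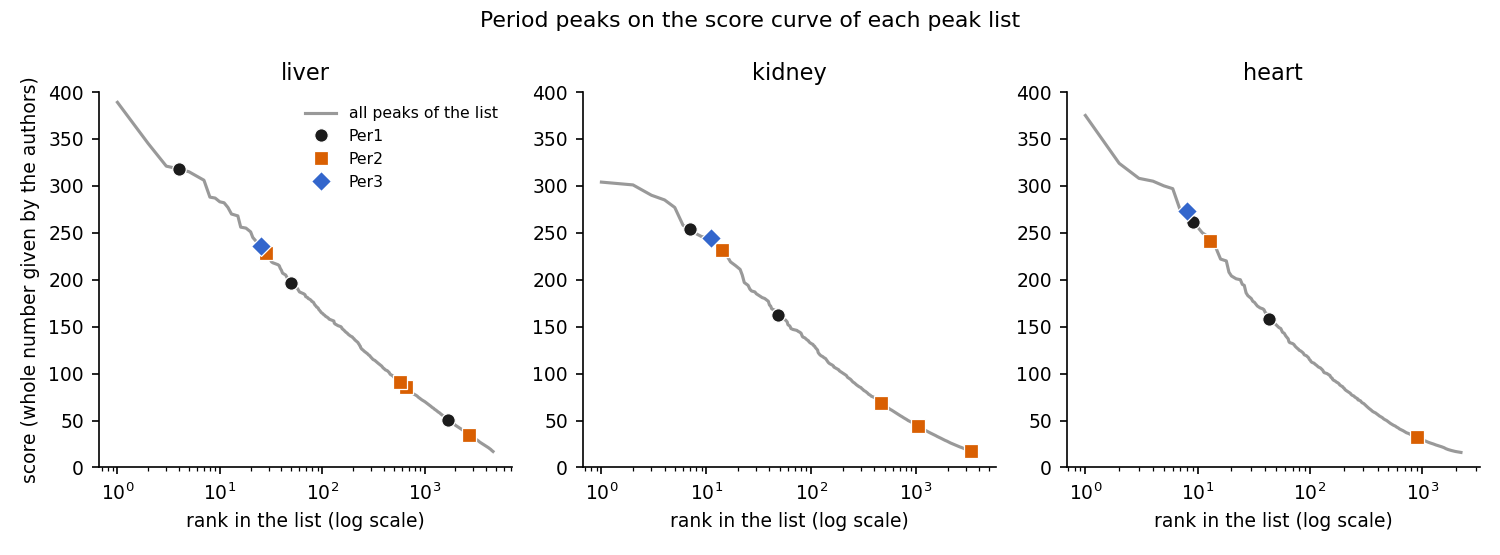
Score of each peak against its rank (log scale) in the liver, kidney and heart lists, with the Period peaks marked on the curve of all peaks. In each list 4 Period peaks sit among the best 50 ranks, and the other Period peaks start at rank 458 or later.

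Scores of the Period peaks thus fell into a high and a low group in liver and kidney. In heart only the site inside Per2 (score 32, rank 894) was low. The high group was the same 4 sites everywhere. These were the site just outside the upstream end of Per1, the site at its first listed start site, and the starts of Per2 and Per3. Of the 20 Period peaks, 12 were in the upper 10% of their list, where 10.1% of all peaks lie when ties are counted, and the same 12 were in the upper 5%. The median score of the Period peaks was 143.5 for the 8 liver peaks, 162 for the 7 kidney peaks and 241 for the 5 heart peaks. The median of the whole liver list was 40, that of the kidney list 28 and that of the heart list 25. Fewer weak peaks entered the heart median, since the heart list held only the 5 common Period sites.

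The lists differ in length, so ranks were also taken among the 519 regions common to all tissues, the same set in each list. The site outside Per1 then held ranks 4, 7 and 9 in liver, kidney and heart. The Per3 site held ranks 21, 11 and 8, and the Per2 start ranks 24, 14 and 13, so both stood higher in kidney and heart than in liver, whereas the Per1 site stood highest in liver. The promoter site of Per1 hardly moved, with ranks 44, 48 and 42. Its ranks in the whole lists were 50, 48 and 43, so most peaks above it were in common regions too. The site inside Per2 held ranks 284 and 289 in liver and kidney and 459 in heart. The ranks of this last site spanned 175 places, and 19.1% of the common regions spanned as many or more. The other 4 Period sites spanned 5 to 13 places, against a median of 91 over all common regions and of 16 over the 50 regions of best mean rank. With 1 list per tissue, none of these shifts has an error.

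**Figure D3:**
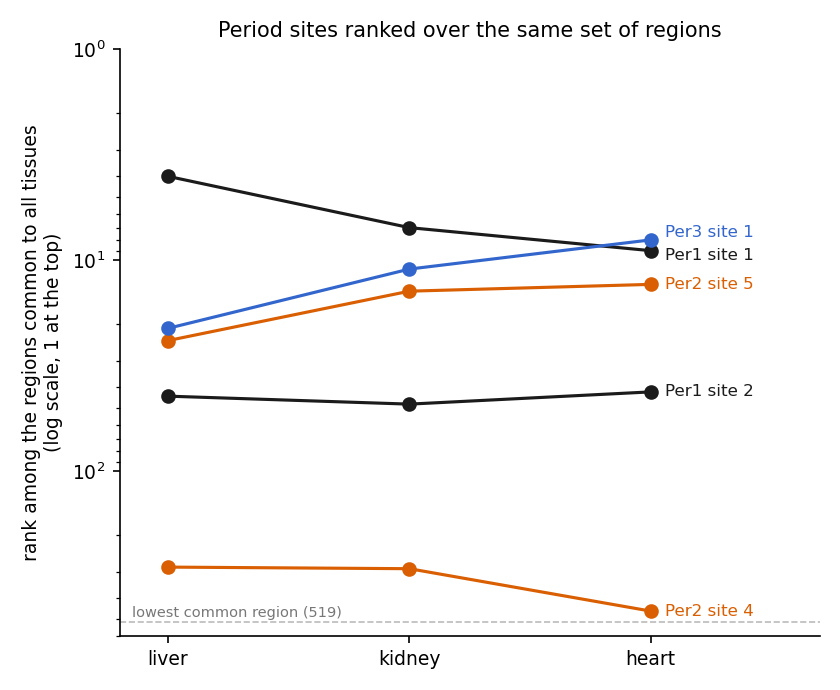
Rank of the 5 common Period sites among the 519 regions found in liver, kidney and heart (log scale, rank 1 at the top), with lines joining a site across tissues. Per1 site 1 lies just outside the upstream end of the gene and Per1 site 2 over its promoter window. Per2 site 5 and Per3 site 1 lie at the gene starts and Per2 site 4 inside Per2. Per2 site 4 drops from rank 289 in kidney to 459 in heart, and the others stay within 13 places.

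The E-box in the Per1 sequence above lay close to the middle of the promoter peak. Its first base is at -166 from the start site (69098783 to 69098788), and its midpoint was 7, 24 and 4 bp from the liver, kidney and heart centres. CACGTG occurred in 7.15% of all 32851 promoter windows of 300 bases, in 36.7% of the 1623 windows that held a peak centre of any tissue and in 60.4% of the 202 windows that held centres of all tissues. Among peaks whose centre and 50 bases on either side could be read from a promoter window, 38.7% of 520 liver peaks, 34.2% of 728 kidney peaks and 35.7% of 339 heart peaks had CACGTG within these 101 bases. Where it was present, the median distance to the centre was 14 bp in liver and 16 bp in kidney and heart. The Per1 distances were thus below the median in liver and heart and above it in kidney. AGGTCA on the reverse strand lay in the same peaks, a hexamer that 16.3% of all windows held on either strand.

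**Figure D4:**
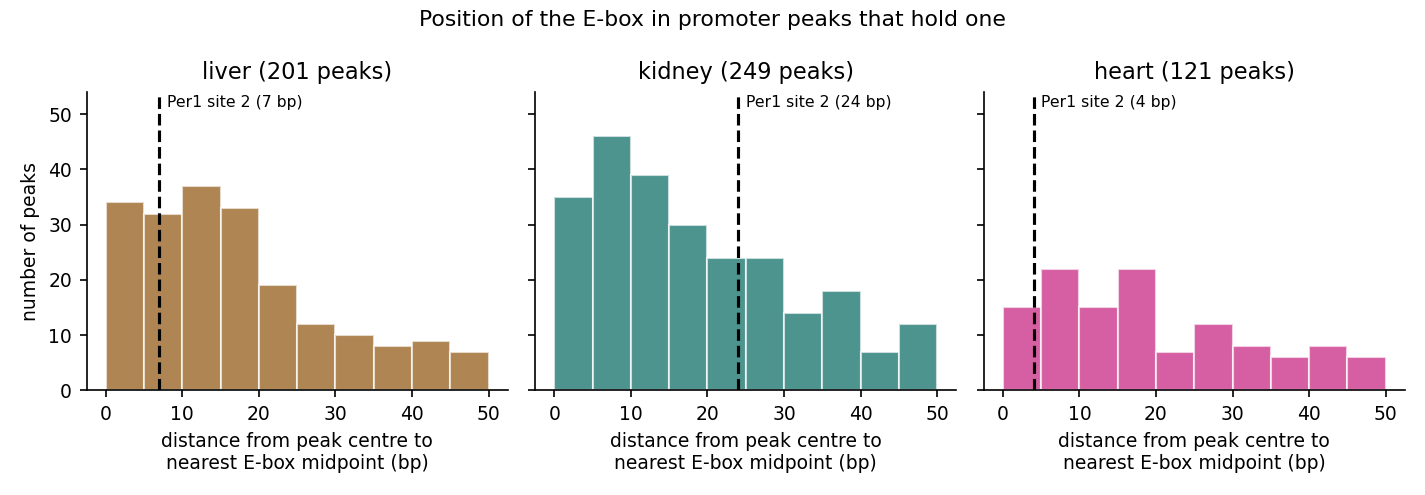
Distance from the peak centre to the midpoint of the nearest CACGTG, in bp, for the peaks of each tissue with the motif within 50 bases of the centre in a promoter window (201 in liver, 249 in kidney, 121 in heart). Bars count peaks in steps of 5 bp and the dashed line marks the promoter peak of Per1 at 7, 24 and 4 bp.

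The Per3 peak gave a different picture at a higher rank. Of its bases, 187 of 242 could be read in liver, 174 of 188 in kidney and 196 of 198 in heart, from the windows of Per3 and Gm38529. None of the motifs searched matched on either strand of these bases: CACGTG, its variants CACGTT and CATGTG, the CRE TGACGTCA, the D-box forms TTACGTAA and TTATGTAA, and AGGTCA. Among peaks in the upper 10% of their list that could be read around the centre, CACGTG was present in 48.3% in liver (57 of 118), 54.6% in kidney (65 of 119) and 53.4% in heart (39 of 73), so the Per3 peak was 1 of many without it. The D-box copies in the Per3 sequence had their first base at -158 and -205 from the start site. Both lay outside the peak, the nearer one by 34, 47 and 25 bp in the 3 tissues. TTATGTAA occurred in 0.938% of all promoter windows and at least 2 times in 0.0213% (7 of 32851). Among the 202 windows with centres of all tissues, to which the Per3 window belongs, 2.48% held it and 0.99% (2 windows) held at least 2 copies. These 2 windows were those of Per3 and Gm38529, which overlap and hold the same copies. These matches describe the letters in the windows and do not show which bases BMAL1 contacts.

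Other genes of the clock were read by the same rule. Over all protein-coding genes, 3.09% held a site common to all tissues and 0.174% held more than 1. All 8 other negative-limb genes (Cry1, Cry2, Nr1d1, Nr1d2, Ciart, Bhlhe40, Bhlhe41 and Nfil3) held a site common to all tissues, and 4 of them held more than 1. All 4 output genes (Dbp, Tef, Hlf and Wee1) held a common site too, and 3 of them more than 1. Of the 5 positive-limb genes read here (Arntl, Clock, Npas2, Rora and Rorb), none held a common site. At a share of 3.09% this does not set 5 genes apart. Arntl had 1 peak, in kidney at rank 2344, and Clock 1 peak, in heart at rank 1826. Rora, which encodes a nuclear receptor that activates Arntl, had peaks in each list, the best at ranks 1408, 1037 and 1826. It is 735 kb long, so its window, with 7 sites, was far wider than those of the Period genes. The 5 genes read here whose products act on PERIOD proteins or bind the complex (Csnk1d, Csnk1e, Btrc, Fbxw11 and Timeless) had no common site and no liver peak. A liver peak was found at 18.1% of all protein-coding genes, so its absence does not set 5 genes apart either. In this last group Btrc and Fbxw11, genes of ubiquitin ligase subunits that recognise PERIOD proteins, had 1 peak each, at rank 2215 in heart and rank 3802 in kidney.

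By the mean rank of the best peak over the lists, the Period genes stood at 6.67 for Per1, 14.7 for Per3 and 18.3 for Per2. Nr1d1 and Nr1d2, which encode the REV-ERB repressors, held ranks 1 and 2 in every list. Dbp and Tef, genes of PAR bZIP activators, had mean ranks of 3.33 and 6.33. Cry2, the partner gene of PERIOD with the better ranks, had ranks 19, 9 and 7 in liver, kidney and heart. Bhlhe40, the gene of the bHLH repressor DEC1, had 14, 17 and 11. The other negative-limb genes had mean ranks of 17.7 (Ciart), 28.7 (Cry1), 35.3 (Bhlhe41) and 241 (Nfil3). The other outputs had 66 (Hlf) and 140 (Wee1). Over all protein-coding genes, 6 had a better best rank than Per1 in liver, 8 in kidney and 12 in heart. For Per3 these counts were 28, 14 and 9, and for Per2 32, 18 and 15. Neighbouring genes share peaks, so these counts hold genes that lie beside a clock gene.

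**Figure D5:**
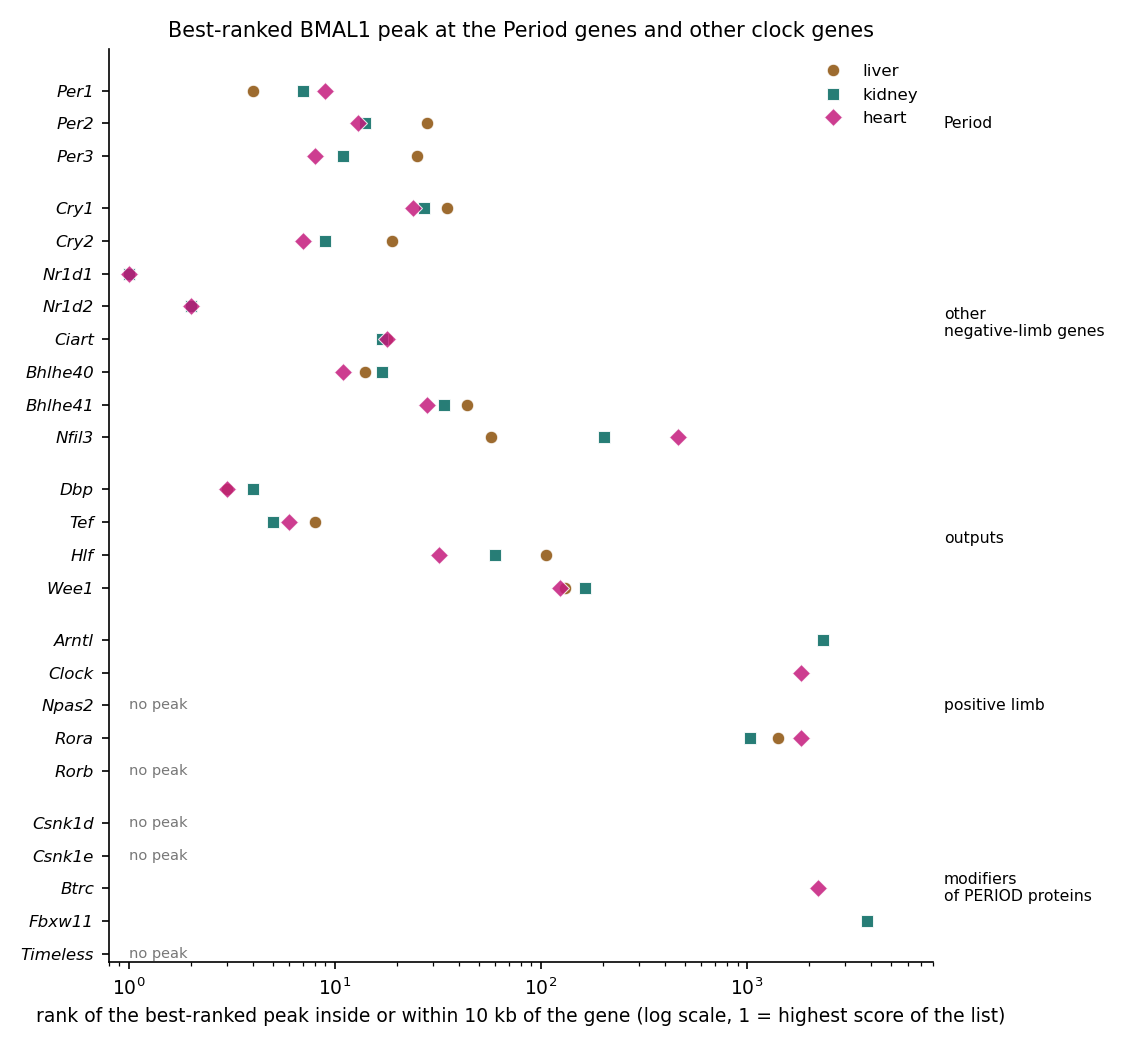
Rank of the best-ranked peak inside or within 10 kb of each gene in the liver, kidney and heart lists (log scale, rank 1 at the left), for the Period genes and 22 other clock genes in 4 groups. The Period genes lie between ranks 4 and 28, amid the better-ranked of the other negative-limb genes and outputs. Hlf, Wee1 and Nfil3 stand lower than the Period genes in every list. The genes of the lowest group have no peak or ranks from 2215 on.

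The genes most like each Period gene were those with the smallest value of the largest difference in log10 rank of the best peak over the 3 lists, among the 953 protein-coding genes with peaks of all tissues. For Per3 these were Cry2 (0.12), Per2 (0.21) and Bhlhe40 (0.25). For Per2 they were Ciart and its neighbour BC028528, which shares the Ciart peak (0.19 for both), and, tied in the next place, Per3 and Gm38529, which share a peak (0.21 for both). For Per1 they were Tef (0.30) and a pair of genes that share a peak, Herc1 and Fbxl22 (0.35 for both). Vamp2, Gm38529 and Vamp3 were left out where they share the best peak of the Period gene itself. The likeness rests on 3 lists and describes rank only.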

How the data were processed

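The authors called peaks on pooled replicates, ChIP and input together, and deposited 1 list for each tissue, in which every peak has a score (per the labels). The submitters' processing notes name Bowtie2, SAMtools, HOMER and the build mm10; the sources used here give no versions, no settings and no meaning of the deposited score. Libraries were grouped by title.

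Genes came from RefSeq's GRCm38.p6 table (21887 protein-coding genes, without strand). Peaks were ranked by score with tied peaks at the best rank, shared at 1 bp of overlap, and assigned to every gene within 10 kb. Promoter windows (250 bases before to 50 after a start site) were searched on both strands. The steps were tested on simulated data. Python 3.11.15 and pandas 2.3.3 were used.

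The Period genes, the clock lists and the tests were chosen with earlier results of these data known. Named genes are the Period genes with every peak, the clock lists, genes holding or nearest to a Period peak, and the 3 most alike per gene. Some genes of the clock lists are not reported here.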

Additional observations from a re-analysis of the deposited data

How the results depend on the processing

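The number of Period peaks stayed within 1.5 times of 20 under every alternative tried, from 14 inside the genes only to 22 within 50 kb; in liver alone it was 5 inside the genes against 8. The common sites numbered 5 under the other windows, the stricter lists and the other overlap rules, 4 inside the genes only, and 6 were found in liver and kidney without the heart list. The 27 alternatives for the best rank of each Period gene and tissue (ties at the worst rank, autosomes only, and the row order of the deposited lists) all stayed within 1.5 times. No other peak shared the score of a best peak, so the rule for ties could not change these ranks. Ranks on autosomes equalled the main ranks, and only the row order moved any of them. Of the 20 peaks, 15 were in the upper 20% of their list. The row order and the omission of heart were chosen after seeing the data. The background moved more. The share of protein-coding genes with peaks of all tissues was 3.6% within 5 kb, 11% within 50 kb, 1.81% inside the gene, 2.27% with the 1000 peaks of highest score, 3.24% with the upper 50% of each list and 2.55% over all annotated genes. In the central 100 bases of the Period promoter windows CACGTG occurred 0 times, since the Per1 E-box lies before them. No paired analysis was possible because the lists pool the replicates, and for the same reason no replicate could be left out.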

Other observations

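The promoter windows of the other clock genes were read in the same way. Of 18 such genes, with 26 windows, 7 had a window that held a peak centre (Cry2, Nr1d1, Ciart, Bhlhe41, Dbp, Tef and Hlf). Of all 32851 promoter windows, 1623 held one. Each of the 7 windows held centres of all tissues. Among the 202 windows of that kind, 60.4% held CACGTG and 67.3% held CACGTG or CACGTT. Of the 7 genes, 3 held CACGTG there (Ciart, Bhlhe41 and Tef), with 3 copies at Ciart, the gene of the repressor CHRONO. The window of Cry1 and another window of Tef also held CACGTG but no peak centre. Cry2 and Nr1d1 held CACGTT instead, and Dbp and Hlf held neither, as at Per3. None of the 7 held TTATGTAA, the D-box sequence found beside the Per3 peak, or the related TTACGTAA. Of the 202 windows with centres of all tissues, 2.48% held TTATGTAA and 0.495% held TTACGTAA. Their absence from 7 windows therefore does not set Per3 apart. The window of Timeless, which held no peak centre, had 1 copy of TTATGTAA.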
